A study of Rattus norvegicus with 12 samples.

Results

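Circles of extrachromosomal DNA that lie within 2 kb downstream of a gene and are shorter than 1000 bp are described here. They are the entries of the deposited eccDNA annotation with the class gene_down2k and a length under 1000 bp, which are 3491 of the 228353 eccDNA listed for rat back skin. A further 36 entries of that class reach 1000 bp or more and are left out. The circles come from 12 Circle-seq libraries of wild-type SD rats, a method in which circular DNA is enriched, linear DNA is digested by exonuclease and the remainder is sequenced. Untreated skin (control) gave 4 libraries, skin irradiated with 2 weekly fractions of 5 Gy gave 4 (5Gy x2), and skin irradiated with 4 such fractions gave 4 (5Gy x4). The series title names electron beam radiation, and irradiated skin was collected on day 7 after the last fraction. All animals shared the strain and genotype, and the labels give no age, no sampling time for the control skin, and do not say whether each library is a separate animal. The p-values therefore cover the spread among the libraries, part of which may be technical. The group with more fractions was also sampled later, so dose and time cannot be told apart. The markers of cell types are genes measured as RNA, and the tissue label could not be checked against them in circular DNA.

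Small eccDNA are double-stranded circles that can arise wherever chromosomal DNA is cut and its ends are joined to each other, and they usually carry no complete gene. Many are close in length to the DNA wrapped on 1 nucleosome or on a few of them. The stretch just past the end of a gene holds sites where RNA polymerase pauses and terminates after the polyadenylation signal, and the upstream flank holds the promoter. A circle in a downstream flank is a piece of that DNA and says nothing about the transcription of the gene.

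The annotation was checked against the circles themselves. Among 280 genes with a circle in both flanks, each flank on 1 side, and a circle in an exon or intron, the flanks lay on opposite sides of the gene's own circles in 278. Of 199 genes with several downstream circles and a circle in the gene body, all 199 had their placed downstream circles on the same side. Only circles listed with 1 gene were placed, so a gene with 1 such circle passed without a check. Swapped upstream and downstream labels would give the same counts, and the gene's own circles carry labels of the same annotation. A total of 19 of 2113 downstream circles overlapped the span of their gene's exonic and intronic circles. How a circle was labelled when it lay in the flanks of several genes is not given in the sources used here, and 123 of the downstream circles (3.52%) were listed with more than 1 gene.

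The libraries held between 35525 and 404815 supporting reads, which are the reads that span a circle's junction or the read pairs that point across it. A circle was counted in a library from 1 supporting read, and supporting reads are amplified without molecular identifiers. The downstream circles made 3669 calls over the 12 libraries, of which 401 were in control, 1238 in 5Gy x2 libraries and 2030 in 5Gy x4 libraries. Their support was thin. The median circle had 4 supporting reads over all libraries, 701 (20.1%) had 1 read, and 22 had 100 or more. The table labels 27.0% of the downstream circles hconf, 16.4% conf and 56.6% lconf, against 26.5%, 14.0% and 59.4% of the other circles under 1000 bp. It does not define these labels.

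On average, libraries of irradiated skin held more downstream circles than control libraries, but no comparison passed the adjusted threshold. Control replicates 1 to 4 held 65, 149, 131 and 56 downstream circles, a mean of 100.2 ± 46.6 (SD, n = 4). The 5Gy x2 libraries held 289, 461, 390 and 98, a mean of 309.5 ± 158. The 5Gy x4 libraries held 308, 701, 709 and 312, a mean of 507.5 ± 228. Every 5Gy x4 library lay above every control library, whereas 5Gy x2 replicate 4 lay inside the control range. For 5Gy x4 this was 5.06-fold the control value, with a two-sided exact permutation p of 0.0286, the smallest that 4 libraries against 4 allow, and an adjusted p of 0.110 over 27 such tests. For 5Gy x2 it was 3.09-fold that value (exact p = 0.0857, adjusted p = 0.289). Between the doses, the fold of 5Gy x4 over 5Gy x2 was 1.64 (exact p = 0.229, adjusted p = 0.441). After every library was thinned to 34499 supporting reads, the folds over control were 2.33 for 5Gy x2 and 3.12 for 5Gy x4 (exact p = 0.0857 and 0.0286). The total sequencing depth is unknown. Among hconf circles the folds over control were 1.91 for 5Gy x2 (exact p = 0.143, adjusted p = 0.514) and 3.65 for 5Gy x4 (exact p = 0.0286, adjusted p = 0.129).

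The share that downstream flanks took of all circles stayed within the spread between libraries. Of circles under 1000 bp, the downstream class made up 1.53% ± 0.181 in control, 1.56% ± 0.0907 after 5Gy x2 and 1.53% ± 0.0794 after 5Gy x4 (SD, n = 4 each). The control libraries ran from 1.31% to 1.70%, which spanned both irradiated groups. The difference from control was 0.033 percentage points for 5Gy x2 (exact p = 0.800, adjusted p = 0.939) and 0.0071 points for 5Gy x4 (exact p = 0.943, adjusted p = 0.971). The direction of both differences turned under several alternatives.

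**Figure D1:**
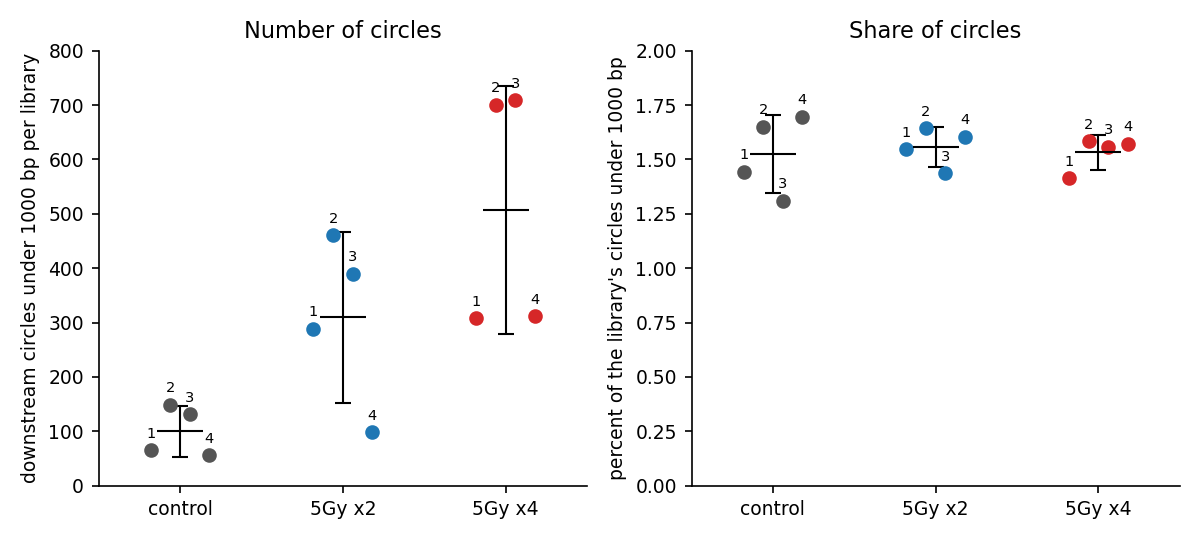
Downstream circles under 1000 bp per library (left) and their percent of all circles under 1000 bp in the library (right), by group; points are libraries with their replicate number, and the bars are the mean and SD of 4 libraries. The 4 5Gy x4 libraries hold 308 to 709 circles and lie above the 4 control libraries at 56 to 149, while the shares overlap at 1.31% to 1.70%.

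Downstream flanks held fewer circles than upstream flanks within the same library. The list has 3491 downstream against 3836 upstream circles under 1000 bp. The log2 ratio of downstream to upstream number was -0.20 ± 0.183 over the 12 libraries (mean ± SD), below 0 in 11 of 12 libraries, with a two-sided exact sign-flip p of 0.000977 and an adjusted p of 0.00326 over 10 within-library tests. The library above 0 was 5Gy x2 replicate 4, with 98 downstream and 97 upstream circles. The gap was widest in control replicate 1, with 65 against 101 circles, and the ratio there was -0.64. By group the mean log2 ratio was -0.36 ± 0.229 in control, -0.11 ± 0.114 after 5Gy x2 and -0.13 ± 0.0830 after 5Gy x4 (SD, n = 4). The groups overlapped, and the change from control had an exact p of 0.114 and an adjusted p of 0.309 for each dose. With at least 5 supporting reads the overall ratio was -0.13 (adjusted p = 0.0562), and among hconf circles it was -0.16 (adjusted p = 0.0553), so the call did not hold in these subsets. Exonic circles outnumbered downstream circles in all 12 libraries, by a log2 ratio of -1.37 ± 0.461 (exact sign-flip p = 0.000488, adjusted p = 0.00244). Exons and flanks cover different lengths of genome, and the number per base was not computed here.

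The commonest listed length of downstream circles was near 360 bp in every group, and control calls were spread more widely around it. An entry found in several libraries is listed with a merged length, which can exceed the length called in each library. The 3491 circles had a median length of 359 bp, with quartiles of 329.5 and 380 bp and a range of 13 to 974 bp. In bins of 20 bp, the fullest bin started at 360 bp in all 3 groups, and it held 11.7% of control, 23.3% of 5Gy x2 and 23.9% of 5Gy x4 calls. A smaller peak in the bin from 200 to under 220 bp held 7.98% of control, 4.36% of 5Gy x2 and 6.60% of 5Gy x4 calls.

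The limit of 1000 bp cut through a sparse tail. The 3 longest circles inside it lay downstream of Parp3 (974 bp), a poly(ADP-ribose) polymerase of DNA break repair, Zfp267 (972 bp) and Slc6a5 (968 bp), a glycine transporter. The 3 shortest outside it lay downstream of Rbp3 (1000 bp), AABR07028805.1 (1007 bp) and Litaf (1012 bp).

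**Figure D2:**
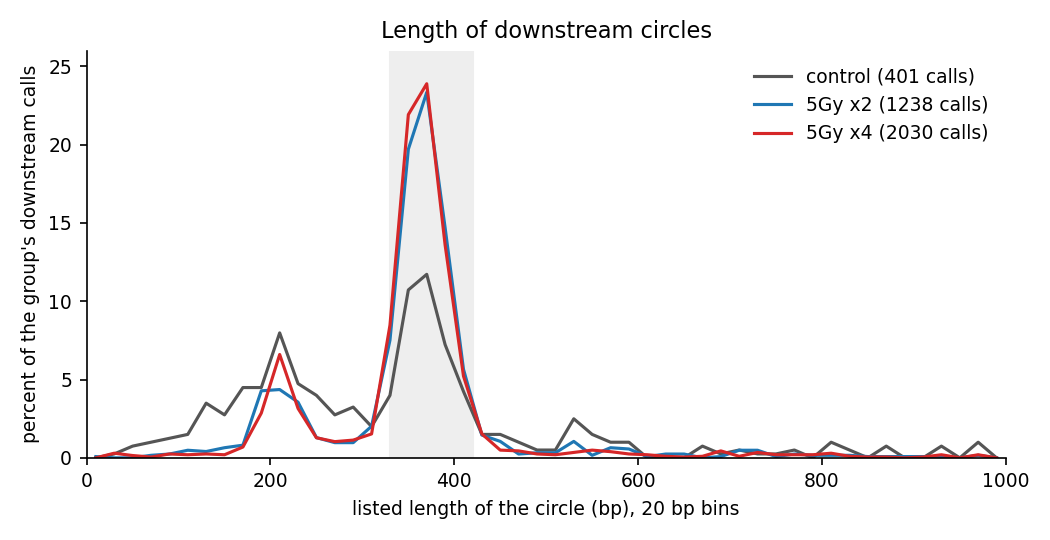
Percent of each group's downstream calls by listed circle length in 20 bp bins, for control, 5Gy x2 and 5Gy x4; the shaded band marks 330 to under 420 bp. The fullest bin, starting at 360 bp, holds 11.7% of control calls and 23.3% and 23.9% of calls after irradiation. Control calls are spread over shorter and longer listed lengths, which are merged lengths for entries of several libraries.

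The share of downstream circles of 330 to under 420 bp set the irradiated libraries apart from control. It was 27.7%, 41.6%, 40.5% and 21.4% in control replicates 1 to 4, a mean of 32.8% ± 9.86 (SD, n = 4). The 5Gy x2 libraries had 67.1%, 67.9%, 70.5% and 64.3%, a mean of 67.5% ± 2.56. The 5Gy x4 libraries had 68.2%, 72.0%, 69.96% and 68.6%, a mean of 69.7% ± 1.74. All 8 irradiated libraries lay above all 4 control libraries. For each dose the exact permutation p was 0.0286 and the adjusted p 0.110, which the smallest p of the design limits. The range of 330 to under 420 bp was set by an earlier look at these data. These p-values, and those of every test of this range below, are therefore not independent evidence. The median length also set both irradiated groups apart from control. It was 338 ± 17.5 bp in control, 362.5 ± 1.91 bp after 5Gy x2 and 360.25 ± 1.89 bp after 5Gy x4, again with an exact p of 0.0286 and an adjusted p of 0.110 for each dose against control. Without control replicate 4, whose median was 313 bp, the difference from control was 16.2 bp for 5Gy x2 and 13.9 bp for 5Gy x4, in place of 24.5 and 22.2 bp. Among circles of 1 library it was 52.8 and 51.9 bp. With each library's own call in place of the merged length, an alternative chosen after seeing the data, it was 33.9 and 33.1 bp. Among hconf circles it was 48 and 33 bp, and the 5Gy x4 libraries then overlapped control (exact p = 0.314, adjusted p = 0.653). The doses overlapped in both measures, with a 5Gy x4 share 2.24 points above that of 5Gy x2 (exact p = 0.200, adjusted p = 0.415).

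All other circles under 1000 bp, counted in the same way, had shares of 17.5% to 46.4% in control and 62.7% to 71.0% in irradiated libraries. Their median length was also higher after irradiation. It was 326.5 ± 31.2 bp in control, 362.25 ± 1.89 bp after 5Gy x2 and 360.75 ± 0.957 bp after 5Gy x4 (SD, n = 4). The downstream share minus that of the other circles was -1.18 ± 6.58 points in control, -0.49 ± 2.21 after 5Gy x2 and 1.64 ± 0.714 after 5Gy x4 (SD, n = 4). No change in this difference between groups exceeded its spread, with exact p values of 0.857, 0.429 and 0.171 for 5Gy x2 against control, 5Gy x4 against control and 5Gy x4 against 5Gy x2 (adjusted p = 0.964, 0.723 and 0.415). All 4 5Gy x4 libraries lay above 0, at 0.99 to 2.505 points.

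Exonic circles had a higher share than downstream circles within every library, and also a higher one than upstream, intronic and intergenic circles. The downstream share of 330 to under 420 bp minus the exonic share was -6.76 ± 4.98 points (mean ± SD), below 0 in 12 of 12 libraries (exact sign-flip p = 0.000488, the smallest that 12 libraries allow, adjusted p = 0.00244). It was -11.0 points in control, -5.45 after 5Gy x2 and -3.84 after 5Gy x4, and the difference between these groups was not tested. Among hconf circles the mean difference was -7.39 points with an adjusted p of 0.0553. Against upstream circles the difference was 1.80 ± 4.38 points, higher in 9 of 12 libraries (exact sign-flip p = 0.188, adjusted p = 0.313).

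Entries found in several libraries are listed with a merged length, and with each library's own call in its place, an alternative chosen after seeing the data, the difference from upstream circles was 4.33 points (adjusted p = 0.00163). The median downstream circle was 9.71 ± 15.4 bp longer than the median upstream circle (exact sign-flip p = 0.00586, adjusted p = 0.0146). Without control replicate 2, where the gap was 53 bp, the mean was 5.77 bp (adjusted p = 0.0293). By group the gap was 24.25 bp in control, 4.12 bp after 5Gy x2 and 0.75 bp after 5Gy x4. It did not pass the threshold with at least 2 supporting reads (8.50 bp, adjusted p = 0.141) or among circles of 1 library (6.12 bp, adjusted p = 0.681).

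**Figure D3:**
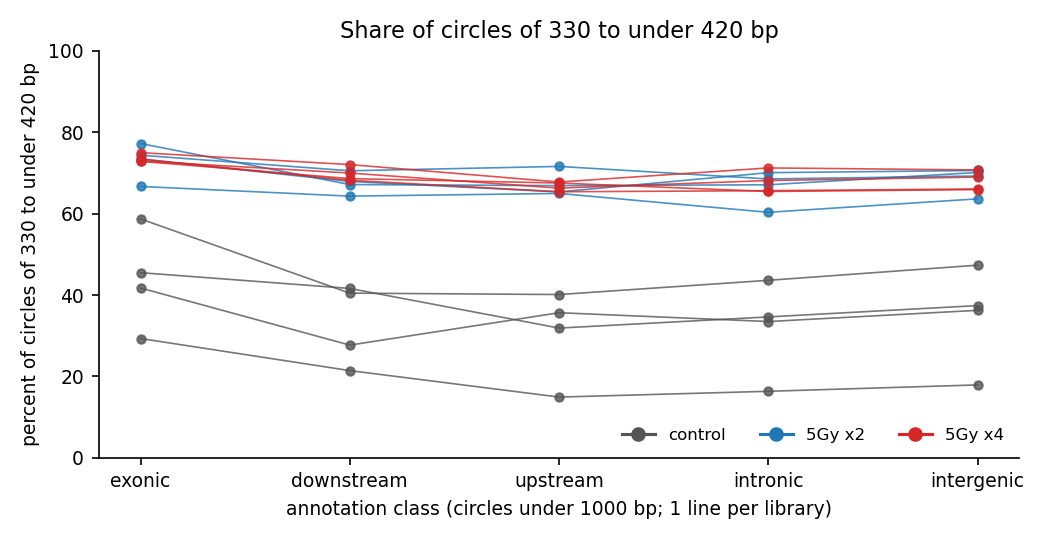
Percent of circles of 330 to under 420 bp by annotation class, among circles under 1000 bp; each line is 1 library, coloured by group. In all 12 libraries the downstream, upstream, intronic and intergenic shares lie below the exonic share. The irradiated libraries (64.3% to 72.0% downstream) lie above the control libraries (21.4% to 41.6%) in every class.

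Counts of circles by length class and annotation class were fitted with edgeR, which tests each class relative to the other classes of the table and not its absolute number. Of the 25 classes tested, 20% were called higher and 16% lower in 5Gy x2 against control, and 24% higher and 24% lower in 5Gy x4 against control, at an adjusted p of 0.05. Of the 5 downstream classes, 1 was called higher and 1 lower at each dose, which is close to these shares.

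Downstream circles of 330 to under 420 bp numbered 18, 62, 53 and 12 in control, 194, 313, 275 and 63 in 5Gy x2, and 210, 505, 496 and 214 in 5Gy x4. All 8 irradiated libraries lay above the control libraries. Relative to the other classes they rose by a log2 fold change of 1.77 (SE 0.211, edgeR adjusted p = 2.69e-06) in 5Gy x2 and 1.88 (SE 0.209, edgeR adjusted p = 8.72e-07) in 5Gy x4. This length range was set with earlier results of the same libraries known.

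Downstream circles under 150 bp numbered 6, 14, 9 and 9 in control, 3, 14, 4 and 2 in 5Gy x2, and 8, 6, 8 and 4 in 5Gy x4. The raw numbers overlapped between the groups. Relative to the other classes they fell, with a log2 fold change of -1.58 (SE 0.424, edgeR adjusted p = 0.00465) in 5Gy x2 and -1.97 (SE 0.412, edgeR adjusted p = 0.000394) in 5Gy x4. Among hconf circles this class was too sparse to be tested, which left 1 downstream class called in 5Gy x2. The 3 classes of 150 to under 250, 250 to under 330 and 420 to under 1000 bp had log2 fold changes between -0.43 and 0.11 and were not called. Among hconf circles the class of 420 to under 1000 bp was called lower in 5Gy x4 (log2 fold change -1.13, edgeR adjusted p = 0.0078). Among circles of 1 library the log2 fold change of that class in 5Gy x4 was 0.0034 (edgeR adjusted p = 0.992).

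This split depends on the scaling. With TMM normalization replaced by library size alone, all 5 downstream classes were called at each dose, 1 higher and 4 lower, as were 23 and 22 of the 25 classes in all, and the median log2 fold change over all 25 classes moved to -0.92 in 5Gy x2 and -0.82 in 5Gy x4. The class of 330 to under 420 bp stayed higher (1.02 and 1.05) and the class under 150 bp stayed lower (-2.33 and -2.82). No class differed between 5Gy x4 and 5Gy x2 at this threshold (0% of the 25 classes). Of these 25 classes, 3 lay at an unadjusted edgeR p under 0.05 in that comparison, none of them downstream, and DESeq2 also called 0.

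Downstream circles were spread over all chromosomes. The table holds 372 on chromosome 1, 288 on chromosome 3, 264 on chromosome 2 and 258 on chromosome 10, and 2 on chromosome Y. Chromosome 10 held 7.39% of the downstream and 7.64% of the upstream circles but 4.67% of all circles under 1000 bp. Chromosomes 18 and 19 held 3.41% and 3.15% of the downstream against 2.35% and 2.19% of the upstream circles. These shares are descriptions of the list and were not tested.

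No chromosome's downstream circles passed the threshold between groups. Counts by chromosome and annotation class gave 97 classes with enough circles, 17 of them downstream. Over all 97 classes, 6.19% were called higher and 6.19% lower in 5Gy x2 against control, 8.25% higher and 9.28% lower in 5Gy x4 against control, and 0% in either direction in 5Gy x4 against 5Gy x2. Of the 17 downstream chromosomes 0 were called by edgeR in any of these comparisons. DESeq2 also called 0, but in 5Gy x4 against control it gave no adjusted p for chromosomes 11, 16 and 18. At an unadjusted p under 0.05 edgeR gave 1 higher chromosome against control at each dose, and 0 between the doses. Over all 97 classes, 15 and 16 were higher against control at that unadjusted threshold.

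That chromosome was chromosome 11. It carried 3, 0, 1 and 0 downstream circles in control, 11, 11, 8 and 2 in 5Gy x2, and 7, 24, 19 and 12 in 5Gy x4. Its log2 fold change relative to the other classes was 1.38 (SE 0.693, edgeR adjusted p = 0.177) in 5Gy x2 and 1.596 (SE 0.646, edgeR adjusted p = 0.0662) in 5Gy x4. Without control replicate 1, which held 3 of the 4 control circles, it passed the threshold at both doses (edgeR adjusted p = 0.0251 and 0.00601).

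Chromosome 18 carried 0, 6, 1 and 0 circles in control, 12, 16, 14 and 0 in 5Gy x2, and 8, 26, 30 and 8 in 5Gy x4. Its log2 fold changes were 0.98 (SE 0.564, edgeR adjusted p = 0.262) and 1.02 (SE 0.537, edgeR adjusted p = 0.172). Without control replicate 2, which held 6 of the 7 control circles, it passed the threshold (edgeR adjusted p = 0.0258 and 0.0154). Chromosome 12 had the lowest value in 5Gy x4, a log2 fold change of -0.80 (SE 0.422, edgeR adjusted p = 0.172).

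**Figure D4:**
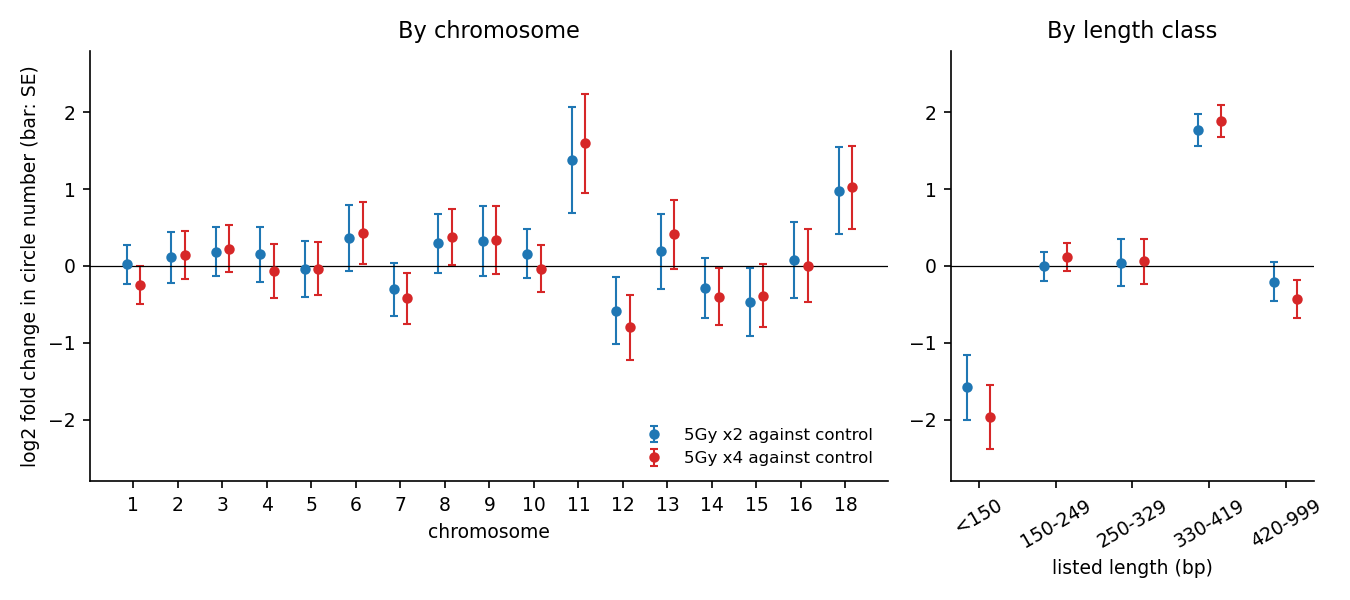
Log2 fold changes of downstream circle number against control, by chromosome (left, the 17 chromosomes with enough circles) and by length class (right), from edgeR with TMM normalization; points are fitted values and bars are SE, for 5Gy x2 and 5Gy x4. Circles of 330 to under 420 bp (1.77 and 1.88) and under 150 bp (-1.58 and -1.97) passed the adjusted threshold, and no chromosome did; chromosome 11 has the highest value at 1.596.

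Most downstream circles were found once. A total of 3379 circles were listed in 1 library, 83 in 2, 14 in 3, 6 in 4, 2 in 5, 3 in 6, 2 in 7 and 2 in 8, and none in more. The 112 found in several libraries are 3.21% of the downstream circles, against 3.86% of upstream and 3.69% of all other circles under 1000 bp. In all, 322 circles were found in control alone, 1157 in 5Gy x2 alone and 1932 in 5Gy x4 alone, and 19 were found in all 3 groups. A circle of 1 library is in 1 group alone by definition, and such circles make up most of these counts. The same counts were not made for the other circles. There were 0 circles present in all 4 libraries of one group and absent from another group.

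Per library, the share of downstream circles also found in another library was 25.9% ± 11.6 in control, 8.48% ± 3.90 after 5Gy x2 and 6.02% ± 2.38 after 5Gy x4 (SD, n = 4). Control libraries ran from 16.8% to 42.9% and lay above all irradiated libraries, at 3.85% to 13.3%. The exact permutation p was 0.0286 and the adjusted p 0.110 for each dose. The other circles under 1000 bp had similar shares, 18.4% to 39.5% in control and 5.53% to 14.8% after irradiation. Control libraries also held fewer circles, and the part of library size in this share was not tested beyond thinning, after which the differences from control were -15.6 and -18.4 points.

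Recurrent downstream circles were better supported and less often near 360 bp than those of 1 library. In all 12 libraries the median supporting reads of recurrent circles was above that of circles found in that library alone, for example 18 against 11 in control replicate 4 and 22 against 10.5 in 5Gy x2 replicate 1. The hconf label was more frequent among recurrent circles in 12 of 12 libraries. By the library's own call, the share of 330 to under 420 bp was lower among recurrent circles in 11 of 12 libraries, for example 24.1% against 72.8% in 5Gy x4 replicate 1. The exception was control replicate 4, at 25% against 21.9%. These values describe the list and were not tested.

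A recurrent entry is a stack of different calls more often than 1 junction seen repeatedly. Both ends of all calls lay within 2 bp of each other in 15 of the 112 recurrent downstream entries (13.4%), in 9 of 148 upstream entries (6.08%) and in 861 of 8193 other entries (10.5%). The starts of a recurrent downstream entry spread over a median of 39 bp and the ends over 35 bp. The merged entries had a median length of 370.5 bp, and the median of their own calls was 346 bp.

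The entry downstream of Kdr, the gene of the VEGF receptor of blood vessel endothelium, was found in 8 libraries, 2 control, 4 5Gy x2 and 2 5Gy x4. It lies on chr14:34789092-34789456 in rn6, is listed with 365 bp and had 246 supporting reads. Its reads were 60 and 11 in control replicates 3 and 4, 67, 18, 32 and 19 in 5Gy x2, and 23 and 16 in 5Gy x4 replicates 1 and 4. Its calls measured 236 to 347 bp, and their starts differed by up to 129 bp.

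The other entry found in 8 libraries lies on chr1:142512548-142512836, downstream of ENSRNOG00000061889, which has no symbol in the table. It was present in all 4 control libraries, in 5Gy x2 replicate 2 and in 5Gy x4 replicates 2, 3 and 4. All 8 calls began at the same base, ended within 1 bp of each other and measured 288 or 289 bp. Supporting reads were 6, 13, 18 and 19 in control, 6 in 5Gy x2, and 52, 8 and 3 in 5Gy x4. Here, unlike at Kdr, the libraries share 1 junction.

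Rbm20, the gene of a splicing factor of heart and muscle transcripts, had an entry in 7 libraries (chr1:274589963-274590531) with 164 supporting reads and calls of 306 to 525 bp. Ogfod3 also had an entry in 7 libraries (chr10:110377958-110378485), all 4 of control, 2 of 5Gy x2 and 1 of 5Gy x4, with 134 reads and calls of 289 to 528 bp. Several of its calls shared an end without sharing a start.

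The entries found in 6 libraries lay downstream of Adk, the adenosine kinase gene (chr15:3031747-3032708, 962 bp), of Lgals12, a galectin gene of fat cells (chr1:222890521-222890969, 449 bp), and of Tab2, an adaptor of inflammatory kinase signalling (chr1:1997963-1998515, 553 bp). Each was present in all 3 groups. The Adk calls were long, at 646 to 949 bp, and its 288 reads were the most of any downstream circle. The Lgals12 calls shared their left end within 21 bp, and their right ends spread over 112 bp.

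Pigr, the receptor that carries immunoglobulins across epithelia, had an entry in 5 libraries, 3 control and 2 5Gy x4 (chr13:47593635-47594571). Gtf3c1, a subunit of the factor that directs RNA polymerase III, had one in 5 libraries (chr1:197031598-197032129), and RGD1307182 had one in 4 (chr9:14643678-14644482). None of these 10 entries had the same length in every library, and that of ENSRNOG00000061889 came closest.

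**Figure D5:**
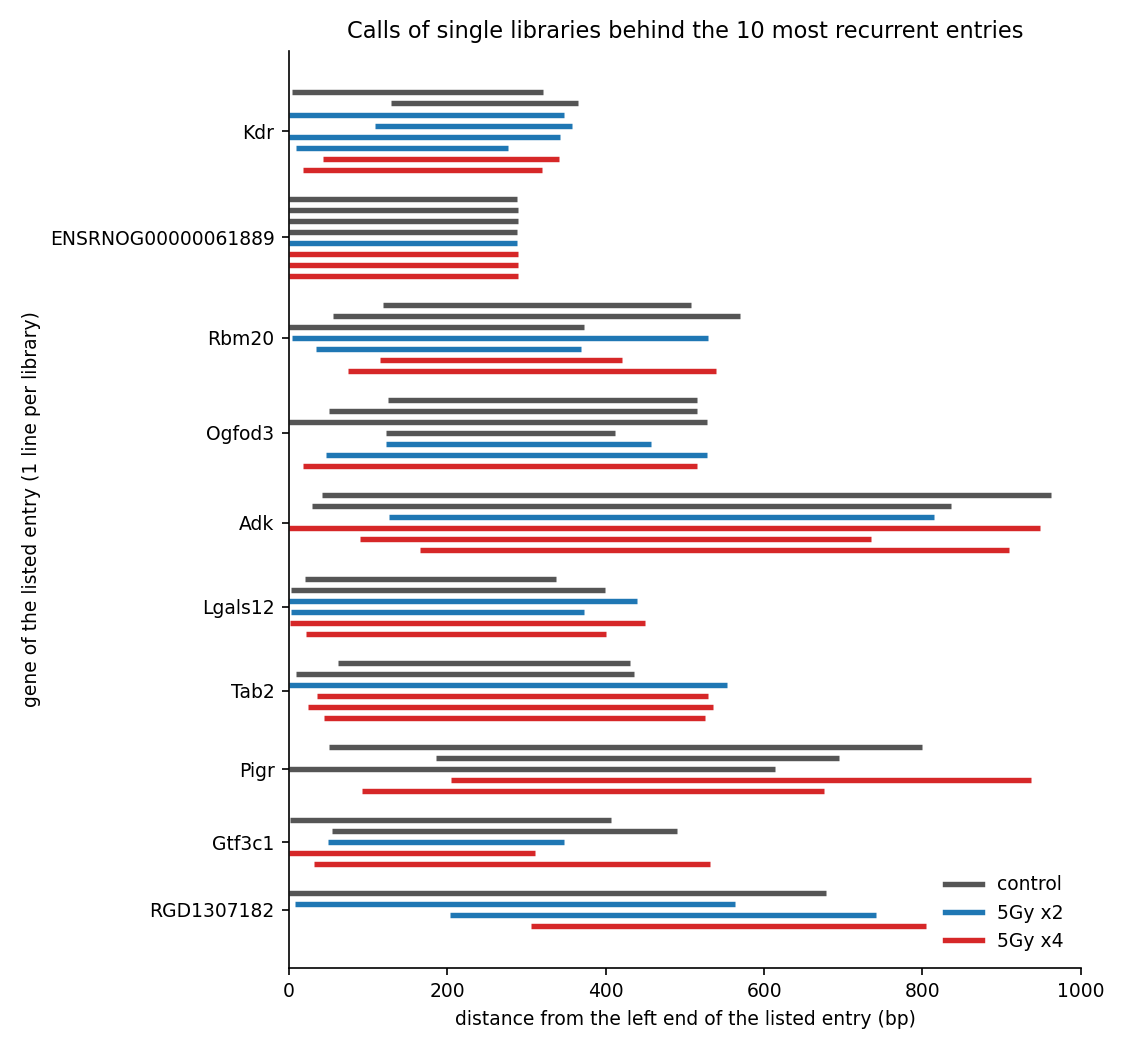
The calls of single libraries behind the 10 downstream entries found in most libraries, drawn to scale as distance in bp from the left end of the listed entry; each line is 1 library, coloured by group. The 8 calls at ENSRNOG00000061889 lie within 1 bp of each other, and the calls at the other 9 genes differ in start, end or both.

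The largest read counts in 1 library did not fall on the most recurrent entries alone. A circle of 456 bp downstream of Papolg, a poly(A) polymerase gene (chr14:108623028-108623483), had 201 supporting reads in control replicate 4 and was found nowhere else. A circle of 59 bp on chr19:42455524-42455582, downstream of ENSRNOG00000060265, had 155 of its 237 reads in control replicate 1, a library with 35525 reads in all. Adk had 153 reads in 5Gy x2 replicate 1. Circles downstream of LOC100364523 (226 bp, 134 reads in 5Gy x2 replicate 1) and of Creld2, an endoplasmic reticulum stress gene (354 bp, 128 reads in control replicate 4), were each found in 1 library.

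No difference in support per circle passed the test between groups. The mean log2 supporting reads per downstream circle was 2.69 ± 0.953 in control, 2.28 ± 0.991 after 5Gy x2 and 2.25 ± 0.785 after 5Gy x4 (SD, n = 4; exact p = 0.543 and 0.486 against control, adjusted p = 0.814 and 0.771). Circles with 1 supporting read were 14.4% ± 10.5, 17.6% ± 15.4 and 16.7% ± 10.2 of the downstream circles (exact p = 0.743 and 0.771, adjusted p = 0.939 for both). Both measures changed with thinning to 34499 supporting reads. At an equal total of reads, a library that lists more circles has fewer reads per circle on average. The thinned values are therefore not separate from the number of circles. The share with 1 read was then 17.97 points above control in 5Gy x2 (exact p = 0.143, adjusted p = 0.297) and 27.5 points above it in 5Gy x4, where the groups did not overlap (exact p = 0.0286, adjusted p = 0.0771). The mean log2 reads differed from control by -0.65 (exact p = 0.143, adjusted p = 0.297) and by -0.94, again without overlap for 5Gy x4 (exact p = 0.0286, adjusted p = 0.0771). As deposited, the libraries of each group were far apart in both measures, for example 1.79% to 26.2% in control. Within libraries, downstream and upstream circles had mean log2 reads that differed by 0.016 ± 0.151 (adjusted p = 0.763, exact sign-flip test).

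The downstream circles touched 3238 genes, most of them once. Of these genes 2909 (89.8%) had 1 downstream circle, 290 had 2, 32 had 3 and 7 had 4 or more, and 2789 had a symbol in the table. A circle was found at 359 of the genes in control, at 1196 after 5Gy x2 and at 1952 after 5Gy x4, and at 29 genes in all 3 groups. Through their symbols, 2470 of the 3238 genes (76.3%) matched RefSeq entries of the GRCr8 assembly, of which 2463 (99.7%) are protein-coding. For upstream circles this was 2729 of 2741 matched genes (99.6%).

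Some genes with a downstream circle also held other circles. Of the downstream genes 515 also had an upstream circle, which is 15.9% of the 3238 downstream and 14.3% of the 3606 upstream genes. Of all protein-coding genes with a name in RefSeq, a different set of genes, 11.8% had an upstream and 10.8% a downstream circle. An exonic circle was listed for 33.8% and an intronic circle for 55.2% of the downstream genes, against 32.8% and 53.2% of the upstream genes. The shares of all genes with an exonic or intronic circle were not computed, and the overlap was not tested. Of the downstream circles 270 (7.73%) overlapped another downstream circle.

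Dkc1, the gene of dyskerin, which modifies ribosomal RNA and stabilises telomerase RNA, had the most downstream circles. Its 6 circles lie on chromosome X between 155842388 and 155844421 and made 9 calls with 388 supporting reads, 4 in control, 4 after 5Gy x2 and 1 after 5Gy x4. The longest entry is listed with 879 bp, a merged length. It was found in control replicate 2 with 104 reads, in 5Gy x2 replicate 3 with 55 and in 5Gy x4 replicate 3 with 30. Its calls had a median length of 738 bp. Their starts differed by up to 106 bp and their ends by up to 204 bp. Shorter entries of 246, 300 and 302 bp lay inside its span. The entry of 302 bp merged calls of 2 libraries, with a median length of 267 bp and starts 67 bp apart. Others of 451 and 166 bp lay further along the flank and overlapped each other.

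The next 6 genes had 4 circles each. Acox2, a peroxisomal oxidase of bile acid synthesis, and Kctd6 share the same 4 circles on chromosome 15, since their downstream flanks overlap, and those circles had 9 reads together. Gckr, the regulator of glucokinase, had circles of 395, 324, 388 and 351 bp, 2 in 5Gy x2 and 2 in 5Gy x4 and none in control. Fbxo31, a ubiquitin ligase subunit, had circles of 369, 367, 381 and 368 bp, again 2 in each irradiated group. Each of these 8 circles was called in 1 library, with 1 to 12 reads. LOC498460 had 4 circles of 104 to 830 bp with 57 reads, and AC113773.2 had 4 of 52 to 356 bp with 75.

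Ogfod3, Adk and Slc38a4 had 3 circles each and filled the first 10 by their number of calls, 9, 8 and 8. At Slc38a4, an amino acid transporter gene, an entry listed with 371 bp was found in 1 library of each group. Another, listed with 192 bp, was found in 4 irradiated libraries. Both lengths are merged. The calls behind them had median lengths of 291 and 172 bp, with starts up to 130 and 41 bp apart. The entry of 192 bp had 12 and 8 reads in 5Gy x2 replicates 2 and 3 and 7 and 15 in 5Gy x4 replicates 1 and 3. With so few calls per gene, no gene was tested between groups.

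Lists of genes that fit irradiated skin were examined by counting. Over 8 lists, 40 of 275 genes with a known symbol (14.5%) had a downstream circle and 30 (10.9%) an upstream circle. Of the 20950 protein-coding genes with a name in RefSeq, 10.8% had a downstream and 11.8% an upstream circle. By list, the downstream share ran from 2.78% (replication-dependent histone) to 20% (oncogene and growth factor receptor). The upstream share ran from 3.45% (DNA damage and p53 response, 17.2% downstream) to 20% (oncogene and growth factor receptor). In the DNA repair and end joining list 10.8% had a downstream and 16.2% an upstream circle. These shares were not tested. The 40 genes held 44 downstream circles, none found in more than 1 library. Of their 44 calls, 1 was in control, 12 after 5Gy x2 and 31 after 5Gy x4, against 401, 1238 and 2030 of all downstream calls (10.9%, 33.7% and 55.3%). Each call is a single circle in a single library, and lists of this size describe few events.

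Of the DNA damage and p53 response list, 5 of 29 genes had a downstream circle. Aen, an exonuclease of apoptosis, had 2, both in 5Gy x4. Mdm2, the ubiquitin ligase of p53, had 1 in 5Gy x2 (chr7:60718031-60718419, 4 reads). Sesn1 and Plk2, targets of p53, had 1 each in 5Gy x4. In the DNA repair and end joining list, 4 of 37 genes had one, each in 1 irradiated library. They were Xrcc4 and Xrcc6, members of the end-joining machinery, Mre11, a nuclease of the break sensor, and Rif1, which limits end resection (25 reads).

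In the extracellular matrix and fibrosis list, 5 of 37 genes had a downstream circle. Col1a1 (chr10:82764620-82764839), Col4a1 and Col5a1, genes of collagen chains, had 1 each in 5Gy x4 with 10, 14 and 18 reads, and Fbn1, the fibrillin gene, had 1 in 5Gy x2 with 1 read. In the epidermal keratinocyte list, 6 of 35 genes with a known symbol had one. Krt14, a keratin of the basal layer, had 1 in 5Gy x4 (chr10:88054991-88055321, 6 reads). The desmosomal cadherin genes Dsg1, Dsg3 and Dsc1 had 1 each, in 5Gy x2, 5Gy x4 and 5Gy x2. In the inflammation list, 7 of 36 genes had one. Ifng, the interferon gamma gene, had 2, one in each irradiated group, and Il1a, Nfkb1 and Rela had 1 each in 5Gy x4.

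The only control call in any list was downstream of Egfr, the epidermal growth factor receptor gene (chr14:100099661-100100039, 4 reads). The oncogene and growth factor receptor list had circles at 7 of 35 genes. Myc had 1 in 5Gy x4 (chr7:102591647-102592012, 31 reads), and Pdgfrb and Fgfr1 had 1 each in 5Gy x2, with 9 and 22 reads. Of the replication-dependent histone list 1 of 36 genes with a known symbol had one, Hist2h2be with 2 reads in 5Gy x2. Of the highly transcribed housekeeping genes 5 of 30 had one. Rps3, a ribosomal protein gene, had 2, one in each irradiated group, Pkm, a glycolytic enzyme gene, had 2 in 5Gy x4, and Ppia and Hspa8 had 1 each in 5Gy x4.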

How the data were processed

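Per the labels and file headers, each deposited library table holds counts, which are whole-number supporting reads for every circle of 1 common list. The submitters' processing notes name BWA, Picard, bedtools and the build rn6. The sources used here do not give the circle caller, the merging of calls or the meaning of hconf, conf and lconf. In the deposited annotation, starts count from 0 and were raised by 1; 8 of its columns of per-library values were not used. In 203 entries, 1 of them downstream, library counts and the listed total differ.

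Numbers per library were compared with exact permutation tests (27, Benjamini-Hochberg adjusted) and within libraries with exact sign-flip tests (10, adjusted), in Python 3.11.15, numpy 2.4.6 and pandas 2.3.3. Circle counts by class were fitted with edgeR 4.0.16 (quasi-likelihood F test, TMM, filterByExpr, group only) in R 4.3.3, with DESeq2 1.42.0 as an alternative, at an adjusted p of 0.05. Standard errors come from the fold change and F. Both kinds of test were tested on simulated data. Whether replicate numbers shared between groups pair the libraries is not known, and the main tests took the libraries as unpaired.

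The named genes are the 10 with most downstream circles, the 10 entries found in most libraries, the 5 with most reads in 1 library, up to 4 genes per list by calls, chromosomes and length classes past the threshold, and the 3 circles on each side of 1000 bp. Chromosomes 11, 12 and 18 were named after their values were seen. The circles and the 8 lists were chosen with earlier results of these data known. Base composition and junction repeats were not analysed here.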

Additional observations from a re-analysis of the deposited data

Results flagged for a closer look

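Values were flagged where 1 library of 4 lay far from the other 3 by Dixon's criterion, which chance alone meets in about 1 of 20 groups. The downstream share of circles under 1000 bp was 1.41% in 5Gy x4 replicate 1, against 1.56% to 1.58% in the other 3 libraries of the group. The share of downstream circles with 1 supporting read was 40.6% in 5Gy x2 replicate 2, against 7.61% to 11.2% in the other 3.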

How the results depend on the processing

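Of the 27 exact comparisons between groups, 0 passed the adjusted threshold under any alternative, and the smallest exact p of the design limits this. The cause of the changes below was not tested. The downstream share of circles against control turned to -0.098 points (5Gy x2) and -0.061 (5Gy x4) with at least 5 supporting reads, to -0.13 in 5Gy x2 among hconf circles, and to -0.0038 in 5Gy x4 among circles of 1 gene. Leaving out 1 library it ran from -0.039 to 0.090 and from -0.065 to 0.064. Between the doses it turned to 0.036, 0.15 and 0.0010 points (at least 5 reads, hconf, thinned) and ran from -0.067 to 0.013. The log2 ratio to upstream circles turned between the doses to 0.050, 0.19 and 0.019 under the same 3 settings (-0.06 to 0.01 without 1 library), and in 5Gy x2 against control to -0.07 among hconf circles. The excess of the 330 to under 420 bp share over other circles turned in 5Gy x2 to -1.77 (at least 5 reads) and -1.11 points (hconf), and ran from -1.49 to 2.75. Mean log2 reads ran from -0.79 to 0.0099 in 5Gy x2 against control and from -0.45 to 0.35 between the doses, where circles of 1 library gave 0.016. The share with 1 read ran from -4.40 to 7.19, from -2.22 to 6.29 and from -5.48 to 6.76 points in the 3 comparisons, with -0.32 in 5Gy x4 among circles of 1 library and, after thinning, 17.97, 27.5 and 9.50 points. Thinned mean log2 reads differed from control by -0.65 and -0.94. The difference in median length from control was 16.2 and 13.9 bp without control replicate 4, and the fold in number for 5Gy x2 was 1.91 among hconf circles.

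Within libraries, the number ratio to upstream circles lost its call at -0.13 (at least 5 reads) and -0.16 (hconf). The length gap to upstream circles lost it at 8.50 bp (at least 2 reads), 6.25 bp (at least 5), 14.3 bp (hconf) and 6.12 bp (circles of 1 library). The 330 to under 420 bp share against exonic circles lost it at -7.39 points (hconf). Against upstream circles that share gained a call at 4.12 points (circles of 1 library), at 4.33 (each library's own call, chosen after seeing the data) and without control replicate 1 (range 1.08 to 2.69). The median length against exonic circles gained a call at -7.75 bp (at least 2 reads), -11.2 (at least 5), -17.1 (no length limit), -5.69 (thinned), -13.8 (circles of 1 library), -8.54 (own call) and without control replicate 2 or 5Gy x2 replicate 4 (range -7.36 to -3.18). Mean log2 reads turned to -0.041 (at least 5 reads) and -0.0021 (circles of 1 library) against upstream circles, range -0.0087 to 0.034, and to -0.027, -0.0019, -0.0025 and -0.035 (at least 5 reads, no limit, hconf, circles of 1 library) against exonic circles, range -0.010 to 0.031. The share with 1 read turned to 0.58 points against upstream (hconf) and to 0.89 against exonic circles (circles of 1 library), range -0.86 to 0.039.

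Downstream length classes called numbered 5 with library size alone at each dose, in place of 2, and 1 among hconf circles in 5Gy x2. In 5Gy x4 the hconf fit called 2, of which 1 was shared with the full set; the other was the class of 420 to under 1000 bp, and the class under 150 bp was not tested. Downstream chromosomes called ran from 0 to 1 at each dose, with chromosome 11 without control replicate 1 and chromosome 18 without control replicate 2. Whether the replicate numbers pair the libraries is not known. Counts by class, scaled for library size, had correlations of -0.057 to 0.25 between libraries of the same replicate number. That scaling hides any pairing in the number of circles. In each group replicates 2 and 3 held more downstream circles than replicates 1 and 4. With a replicate block the fits called 2 length classes against control and 0 chromosomes. The exact sign-flip p for the number of circles was then 0.125, the smallest that 4 pairs allow. The alternatives planned for base composition and junction repeats were not run. A median of 4 supporting reads per circle limits what each call can show.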
